A study of Mus musculus with 74 samples.

Results

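The genes described here are 43 genes of the lysosome, the acidic compartment in which cells break down what they take up. They were found by symbol in 2 deposited expression tables, where each occurs once among the 23297 features that carry a gene symbol. By role they are 19 hydrolases and helper proteins, 9 proteins of the lysosomal membrane and of cholesterol export, and 15 parts of the proton pump. Glb1 shares its feature with Tmppe and Atp6v0c shares its feature with the pseudogene Atp6v0c-ps2, so these values may hold reads of both.

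Lysosomal hydrolases cut sugars, sulfates, lipids and peptides off the material delivered by phagocytosis, endocytosis and autophagy, and they work at acidic pH. The acid comes from the vacuolar ATPase, whose V1 sector in the cytosol hydrolyses ATP and whose V0 sector in the membrane carries protons inward. Phagocytes such as microglia and macrophages are rich in lysosomes, and inherited loss of several of these genes causes storage disease in the nervous system.

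RNA was sequenced from spinal cord microglia and from sciatic nerve macrophages of female mice. The disease model carries a mutant human SOD1-G93A transgene and develops motor neuron disease like amyotrophic lateral sclerosis. G93A microglia came from 4 pre-symptomatic mice (mean age 50.8 days), 5 at onset (105 days), 4 in early symptoms (152.6 days) and 4 at end stage (169.4 days). Microglia were also taken from mice transgenic for wildtype human SOD1, called WT, and from non-transgenic C57BL/6J mice, called B6, with 4 of each near the age of onset and 4 of each near that of end stage. The mean ages were 107.3 and 165.4 days for WT and 109.8 and 165.6 days for B6. Nerve macrophages came from G93A mice, as 3 pre-symptomatic, 3 onset, 4 early symptomatic and 4 end-stage libraries. Another 4 nerve libraries at end-stage age are WT by description but G93A by title, source and strain, and are called "described as WT". In the grafted set every recipient was a G93A mouse, and its bone marrow graft, given at onset, was of G93A or WT origin. That set holds 12 microglial libraries, 3 for each donor at early symptoms and at end stage, and 11 nerve libraries in the same layout, with 2 for WT marrow in early symptoms. Each library came from 1 mouse, except that pre-symptomatic nerve libraries pooled the nerves of 2 mice. The transgene is a human gene added to the mouse genes and is not limited to microglia or macrophages. Cells were taken with beads against CD11b, a surface protein that neutrophils and monocytes also carry.

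Values are FPKM, in which fragment numbers are divided by transcript length and by the mapped total. The 43 genes held 0.597% to 3.31% of the summed FPKM (484604 to 618562) in non-grafted microglial libraries and 0.427% to 1.00% (of 625386 to 986659) in nerve libraries. The microglial genes P2ry12 and Tmem119 had medians of 510 and 382 FPKM over the 33 non-grafted microglial libraries, but 5.16 and 5.86 FPKM over the 18 nerve libraries. The neutrophil gene S100a8 had a median of 63043 FPKM in those nerve libraries, with a lowest value of 24808, so neutrophil RNA was present in every library labelled as nerve macrophage. Microglial libraries also held RNA of neighbouring cells: the oligodendrocyte gene Mbp ran from 568.3 to 24164 FPKM there. In bulk samples of this kind, fewer cells of a type and less RNA per cell cannot be told apart.

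Across the 13 non-grafted groups, the lysosomal genes were highest in G93A microglia at end stage. Of the 43 genes, 32 had their highest group mean there, and 18 had their lowest in B6 microglia at onset age. The exceptions at the top were Lgmn, highest in WT microglia at end-stage age, Arsa in G93A microglia in early symptoms, Arsb and Atp6v0b in G93A microglia at onset, and 7 genes that were highest in a nerve group (Neu1, Sgsh, Gm2a, Atp6v0e, Atp6v1b2, Atp6v1d and Atp6v1e1). FPKM is scaled by length, so levels can also be set beside each other between genes. In end-stage G93A microglia the highest means were those of Laptm5 at 1528 FPKM, Ctsa at 1484, Cd63 at 1463, Lgmn at 1449, Cd68 at 1218 and Psap at 1074, while Sgsh had 2.65 and Npc1 14.3.

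As a mean level of log2(FPKM + 1) over the 43 genes, G93A microglia had 5.72 ± 0.34 (SD, n = 4) before symptoms and 6.60 ± 0.85 (n = 5) at onset. It had 7.24 ± 0.24 (n = 4) in early symptoms and 7.39 ± 0.38 (n = 4) by end stage. All libraries of early symptoms and end stage were above all pre-symptomatic ones, whose highest was 6.15. WT microglia had 6.04 ± 0.20 (n = 4) at onset age and 6.66 ± 0.39 (n = 4) at end-stage age, and B6 microglia had 5.53 ± 0.27 (n = 4) and 6.07 ± 0.35 (n = 4). At end-stage age the B6 and WT ranges overlapped, and so did those of WT and G93A, where the lowest G93A library (6.82) was under the highest WT library (6.91). The 5 nerve groups lay between 5.82 and 5.93, with SDs of 0.09 to 0.33. Neighbours within the nerve groups did not differ beyond that spread.

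**Figure D1:**
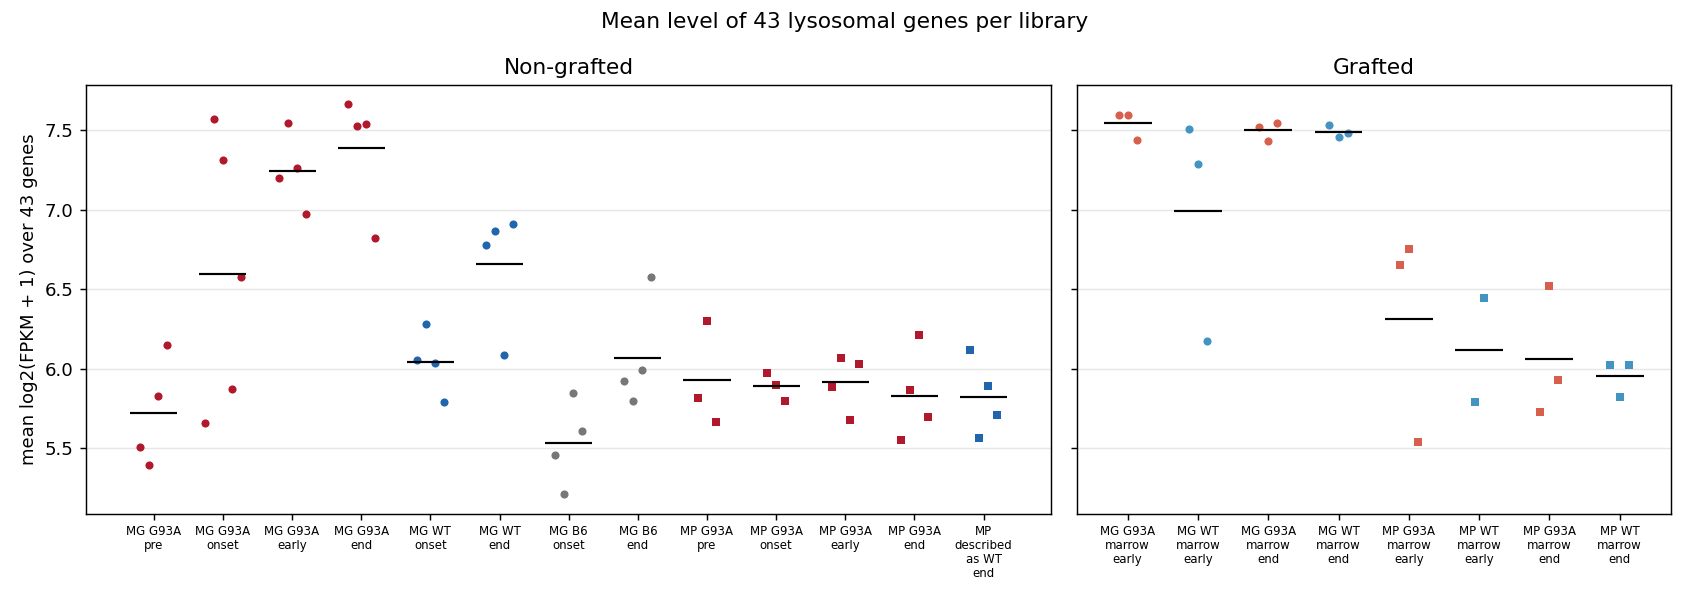
Mean log2(FPKM + 1) over the 43 lysosomal genes in each library (points) by group, with circles for microglia (MG), squares for nerve macrophages (MP), red for G93A, blue for WT or described as WT, grey for B6, lighter colours by marrow donor in grafted mice and a black bar for the group mean. G93A microglia run from a mean of 5.72 before symptoms to 7.39 at end stage, the 5 onset libraries spread from 5.66 to 7.57, and the nerve groups stay between 5.82 and 5.93.

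Between the pre-symptomatic stage and end stage, most of the lysosomal genes rose in G93A microglia and none fell. The mice also differed in mean age, at 50.8 and 169.4 days, and no WT or B6 group was near the younger age. Stage and age therefore cannot be told apart, here or for onset and early symptoms against the pre-symptomatic stage. The change of WT and B6 microglia with age was not tested. In the limma test with Benjamini-Hochberg adjustment over all 11750 genes tested, 37 of the 43 passed an adjusted p of 0.05, all higher. Over all genes 55.9% passed in this comparison, 24.8% as higher. The median difference of the 43 genes was 1.52 on the log2(FPKM + 1) scale, and that of all genes tested was 0.03. For 32 of the 37 genes every end-stage library was above every pre-symptomatic one. The share of all genes without overlap is not given. All 9 glycosidases, all 7 membrane proteins, both cholesterol exporters, all 6 genes of the V0 sector and both accessory genes of the pump were called, whereas none of the 3 sulfatases was.

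Among the hydrolases, the 9 glycosidases, which trim sugar chains from glycolipids and glycoproteins, had a median difference of 2.65. Gla, alpha-galactosidase A, removes galactose from glycolipids. Its pre-symptomatic libraries had 3.84, 2.72, 3.59 and 2.20 FPKM and its end-stage libraries 78.6, 61.2, 56.3 and 29.8 FPKM. All end-stage libraries were far above all pre-symptomatic ones, and the difference was 3.75 ± 0.46 (SE) with an adjusted p of 4.88e-06. Hexa, which encodes the alpha subunit of hexosaminidase, rose by 2.65, Gusb (beta-glucuronidase) by 3.04, Glb1 (beta-galactosidase) by 2.84 and Naglu, an enzyme of heparan sulfate breakdown, by 2.90. The smallest of the 9 was that of Gaa, which degrades glycogen, at 1.11.

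The 3 sulfatases among the 43 genes were not called, with Arsa at 0.55, Arsb at 0.48 and Sgsh at 0.11, and no adjusted p under 0.115. Arsa removes sulfate from sulfatide, a lipid of myelin, Arsb from dermatan sulfate and Sgsh from heparan sulfate. The 2 lipid hydrolases were called, with Asah1 (acid ceramidase) at 1.84 and Ppt1, which takes palmitate off proteins, at 1.37. Among the helper proteins Ctsa, which protects beta-galactosidase and neuraminidase, rose by 3.03 and Psap, the precursor of the saposins, by 2.07. The GM2 activator Gm2a was at 0.25 with an adjusted p of 0.237. Without end-stage library 4, in which the neutrophil gene S100a8 was at 20413 FPKM, Arsa (0.83, adjusted p = 0.0200) and Gm2a (0.43, 0.0421) were called, and with library quality weights Arsa, Arsb and Gm2a were. Of the 2 proteases Tpp1 rose by 1.52 and Lgmn, legumain, by 1.44.

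Of the membrane proteins, Cd68, a heavily glycosylated protein of late endosomes and lysosomes in phagocytes, had the largest difference. Its FPKM was 67.3, 41.4, 99.9 and 211 before symptoms and 1558, 1424, 1345 and 546 at end stage. The groups did not overlap, although end-stage library 4 was well under the other 3 libraries. The difference was 3.67 ± 0.68 with an adjusted p of 0.000250. Lamp1, a main coat protein of the inner lysosomal membrane, had 324, 308, 342 and 449 FPKM before symptoms and 1097, 995, 1097 and 617 FPKM at end stage. Again the groups were apart and library 4 was the lowest, with a difference of 1.396 ± 0.26 and an adjusted p of 0.000275. Cd63, a tetraspanin of late endosomes, rose by 2.81, Laptm5, a membrane protein of blood cells and microglia, by 1.97, Lamp2 by 1.91, Scarb2, the carrier of glucocerebrosidase, by 1.54 and Mcoln1, a calcium channel, by 1.397.

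The cholesterol exporters Npc1 and Npc2 hand cholesterol over from inside the lysosome to its membrane. Npc2 had 51.6, 47.3, 54.2 and 64.0 FPKM before symptoms and 256, 224, 246 and 108 FPKM at end stage. No library overlapped, and the difference was 1.85 ± 0.32 with an adjusted p of 0.000140. Npc1 rose by 1.35.

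The proton pump moved unevenly between its sectors. The V0 sector in the membrane had a median difference of 1.42 over 6 genes, all called, and the V1 sector in the cytosol 0.59 over 7 genes, of which 5 were called. Atp6v1e1 at 0.10 and Atp6v1h at 0.17 were not called, and their libraries overlapped. The called V1 genes ran from 0.50 for Atp6v1d to 1.18 for Atp6v1c1. Of the accessory proteins, Atp6ap2, also known as the prorenin receptor, rose by 1.71 and Atp6ap1 by 1.03. The difference between sectors was not tested.

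The 2 d subunits of V0, which join the membrane sector to the central stalk, stood far apart in these cells. Atp6v0d1 is the widely expressed form. It had 52.8, 52.3, 49.7 and 49.4 FPKM before symptoms and 94.3, 81.0, 78.1 and 83.9 FPKM at end stage, a rise of 0.71 ± 0.10 with an adjusted p of 1.0e-05 and no overlap. Atp6v0d2, the form known from osteoclasts and macrophages, lies at chr4:19876838-19922606 on the minus strand of mm10. It had 0.07, 0.07, 0.05 and 0 FPKM before symptoms, and 104, 76.0, 30.3 and 23.6 FPKM at end stage. Early symptomatic libraries had 14.6, 21.4, 37.4 and 19.98 FPKM. Every library of these 2 later stages was above every pre-symptomatic one. Its differences from the pre-symptomatic stage were 4.46 ± 0.60 (adjusted p = 2.93e-05) in early symptoms and 5.58 ± 0.60 (adjusted p = 1.17e-06) at end stage. With a start near 0 the size of such a difference depends on the pseudocount, and with 0.1 in place of 1 it was 8.403 at end stage. The share of Atp6v0d2 in the summed FPKM of both genes was at most 0.134% before symptoms, 14.7% to 32.1% in early symptoms and 21.98% to 52.4% at end stage. In B6 microglia all 4 libraries at onset age and 3 of 4 at end-stage age were listed at 0, the other at 0.01 FPKM. WT microglial libraries had 0 to 1.82 FPKM. Atp6v0d2 thus passed the filter on mean FPKM in microglia only through G93A libraries from onset on. Its tests in microglia against the pre-symptomatic, WT and B6 groups are of a gene let in by the groups where it is high.

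**Figure D2:**
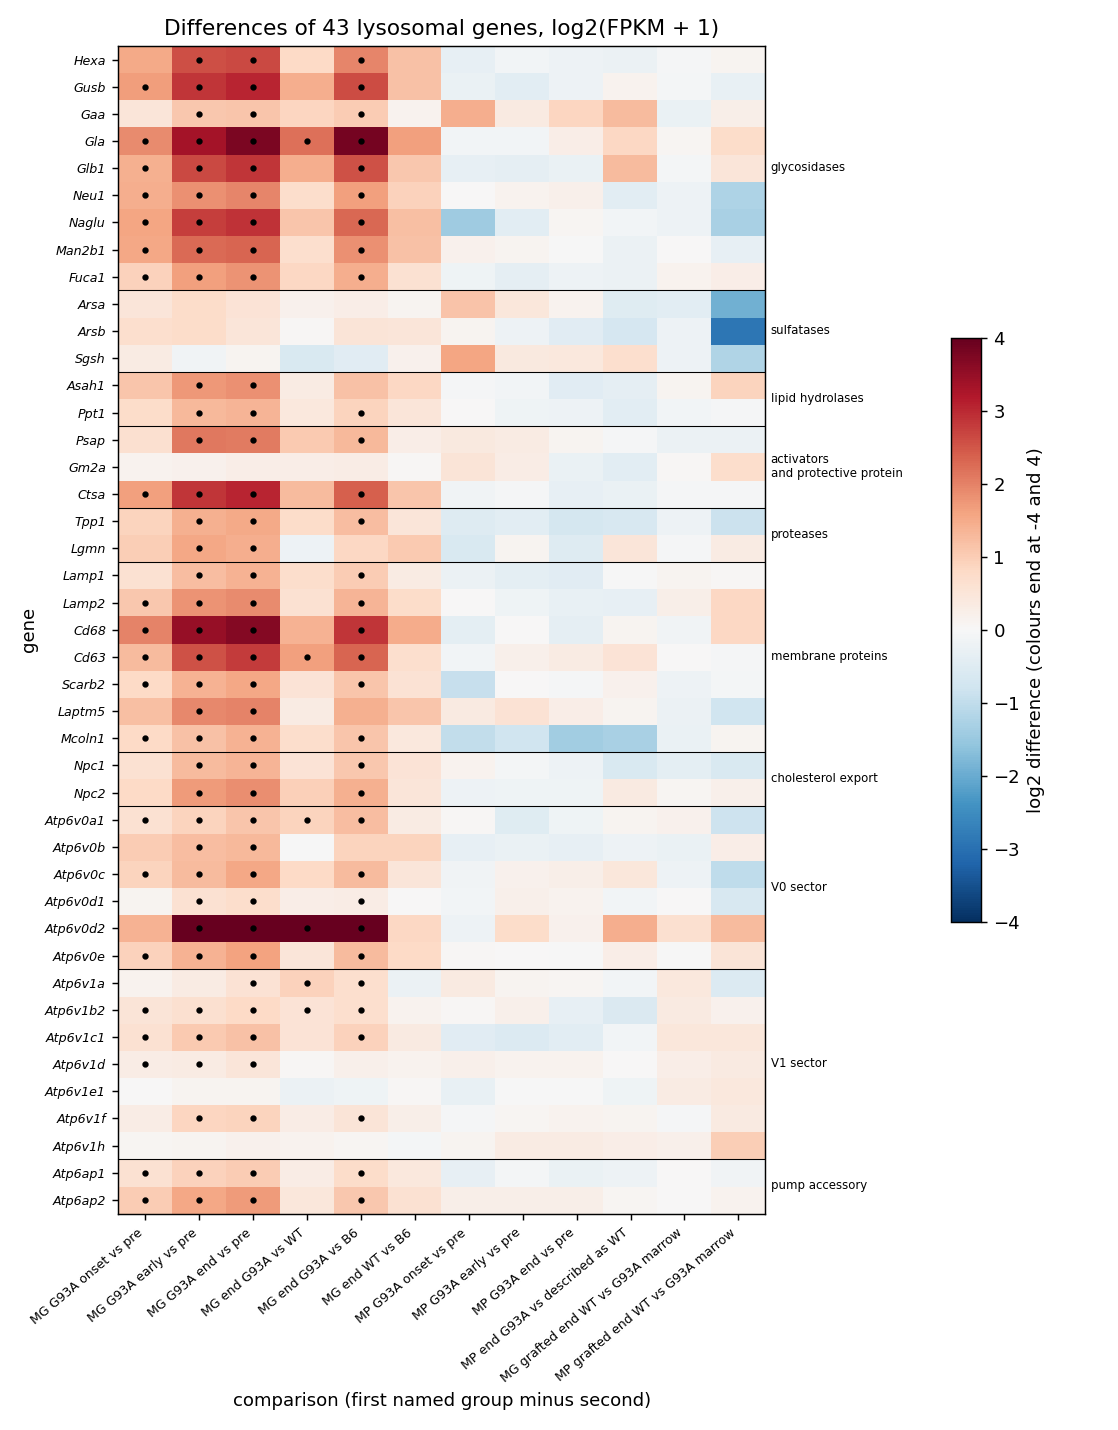
Difference from the comparison group on the log2(FPKM + 1) scale (colour) for each of the 43 genes (rows, by role) in each of 12 comparisons (columns, MG for microglia and MP for nerve macrophages), with a dot where the adjusted p was under 0.05 and colours that end at -4 and 4. The microglial columns of early symptoms and end stage against the pre-symptomatic stage are red in nearly every row, with 36 and 37 dots, while the nerve columns by stage hold none.

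Other cells moved over the same stages. The 8 oligodendrocyte markers fell in 7 cases (median -2.15), the 8 astrocyte markers in 7 (median -3.58), and all 6 neuron markers fell (median -2.24). Summed as a mean log2 level, pre-symptomatic libraries lay between 7.77 and 8.17 and end-stage ones between 5.05 and 7.08 for oligodendrocytes, and between 8.04 and 8.41 and between 3.53 and 6.39 for astrocytes. None of these markers was at 0 in any of these libraries. Of the 8 neutrophil markers 4 rose (median 4.03). Of the 8 microglia and macrophage markers 4 rose, among them Itgam, Aif1 and Adgre1, with a median of 1.29 over the 8, and their summed level was 7.01 to 9.20 in pre-symptomatic and 8.08 to 9.33 in end-stage libraries. The median of the 43 genes, 1.52, was near the median of these general markers. With the oligodendrocyte and neutrophil levels as terms of the fit, 27 of the 37 calls remained, and Hexa, Neu1, Man2b1, Asah1, Lgmn, Laptm5, Mcoln1, Npc1, Atp6v0b and Atp6ap1 were lost. Lgmn was also lost when pre-symptomatic library 1 or 2 or end-stage library 1, 2 or 3 was left out (adjusted p = 0.0748 to 0.140), and Atp6v0b without pre-symptomatic library 1 (0.0504) or 2 (0.0526).

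Early symptoms already showed most of this rise. Against the pre-symptomatic stage, 36 of the 43 genes were higher and none lower, with 35.2% of all genes called in this comparison and 19.2% as higher. The median difference was 1.38, against 0.05 over all genes. All 9 glycosidases, all 7 membrane proteins and all 6 V0 genes were called, but 4 of 7 V1 genes and no sulfatase. Lgmn, Laptm5, Asah1, Atp6v0b and Atp6v1d lost their calls without 1 or another pre-symptomatic or early library, at adjusted p-values of 0.0503 to 0.140, and Arsa was called without early library 4 (0.0440). Between early symptoms and end stage no member passed the limma test, none had an unadjusted p under 0.05, and 0% of all genes were called. With library quality weights 8 members were called, a count without the share of all genes under these weights. The largest difference was that of Atp6v0d2, at 1.12 ± 0.60 (adjusted p = 0.960), and its libraries overlapped.

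At onset the 5 G93A libraries were split. Cd68 had 88.7, 1252, 989, 127.7 and 376 FPKM in libraries 1 to 5, against 41.4 to 211 before symptoms. Gla had 4.73, 62.6, 25.8, 5.82 and 9.79 FPKM, and Atp6v0d2 had 0, 26.1, 1.16, 0.5 and 0.87 FPKM. Libraries 2 and 3 were near the later stages for Cd68, libraries 1 and 4 were within the pre-symptomatic range, and library 5 was between them. The mean log2 level over the 43 genes was 5.66 and 5.87 in libraries 1 and 4, 6.57 in library 5, and 7.57 and 7.31 in libraries 2 and 3. In libraries 1 and 4 Mbp was at 23950 and 18996 FPKM, and the summed oligodendrocyte level was 8.12 and 7.97, against 5.11, 4.48 and 5.27 in libraries 2, 3 and 5. Their summed microglia and macrophage level was 7.28 and 7.72, against 9.76, 10.5 and 9.24. Library 5 had S100a8 at 39129 FPKM and a summed neutrophil level of 9.99, against 2.83 to 4.44 in the other 4 libraries. The part of these cell contents in the result was not tested.

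With all 5 onset libraries, 21 of the 43 genes passed the limma test against the pre-symptomatic stage, all higher, beside 25.4% of all genes (10.3% as higher). The median difference was 0.81, and 0.14 over all genes. They included 7 of 9 glycosidases, 5 of 7 membrane proteins, 3 V0 genes, 3 of 7 V1 genes and both accessory genes. Cd68 had the largest difference of the 43, at 1.99 ± 0.65 (adjusted p = 0.0393), with overlapping libraries. Gla and Cd63 were the members whose onset libraries all lay above the pre-symptomatic ones. The adjusted p-values of the 21 lay between 0.0391 and 0.0491, and the count rests on single libraries. It was 0 without pre-symptomatic library 1, 2 or 3 or onset library 2, 3 or 5, and 34 without onset library 1. Without onset libraries 1 and 4 it was 37, an alternative chosen after seeing the data.

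Sequences before RefSeq start sites of these genes were searched for the letters of the CLEAR element. It is the site of the transcription factor TFEB and its relatives, which are known to act on many lysosomal genes. RefSeq promoter sequences (GRCm38.p6, the same genome as mm10) matched 37 of the 43 genes, and Atp6v0d2, Atp6v1b2, Atp6v1c1, Atp6v1h, Asah1 and Npc1 had no entry. In the 250 bases before the start site, on either strand, CACGTG was found in 12 of 37 genes (32.4%) and in 6.86% of all 27025 genes. The longer GTCACGTG (CACGTGAC on the other strand), which contains CACGTG, was found in 10 of 37 and in 2.11% of all genes. A gene was counted if any of its start sites had the letters. For Ctsa and Lgmn another start site had no copy. Of those 10 genes 8 were called at end stage against the pre-symptomatic stage, with a median difference of 1.42, and of the other 27 genes 24 were called, with a median of 1.56. The medians of genes with and without the letters in this window were close, and 2 of the 3 sulfatases, which were not called, hold them.

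The stretches around GTCACGTG or CACGTGAC are shown to let the shared letters be compared between an enzyme that rose strongly (Ctsa), a pump gene (Atp6v0b), a channel (Mcoln1, which has 2 copies), enzymes of sugar breakdown (Glb1, Naglu), a protease (Lgmn) and the 2 sulfatases that did not pass (Arsa, Sgsh). Each is written 5′ to 3′ on the strand of its gene, with GTCACGTG or CACGTGAC in capitals. The Atp6v0b stretch ends in a further CACGTG, which is left in small letters. The positions are chr2:164833741-164833772 on the plus strand for Ctsa, chr4:117887342-117887385 on the minus strand for Atp6v0b, and chr8:3500428-3500471 and chr8:3500456-3500499 on the plus strand for Mcoln1. They are chr9:114401010-114401053 (plus) for Glb1, chr11:101070001-101070044 (plus) for Naglu, chr12:102439118-102439161 (minus) for Lgmn, chr15:89477425-89477460 (minus) for Arsa and chr11:119355514-119355557 (minus) for Sgsh. The Ctsa and Arsa stretches end at the last base before the start site. Not all stretches lie outside the feature that the expression values cover. Those of Ctsa (feature chr2:164832872-164841032), Naglu (chr11:101069877-101077669) and Lgmn (chr12:102394083-102439813) lie inside it, before a RefSeq start further in. Those of Sgsh and Arsa reach into their features.
Ctsa: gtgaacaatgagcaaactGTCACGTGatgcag
Atp6v0b: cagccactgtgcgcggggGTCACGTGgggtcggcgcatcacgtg
Mcoln1, first copy: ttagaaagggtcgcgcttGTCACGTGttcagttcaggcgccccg
Mcoln1, second copy: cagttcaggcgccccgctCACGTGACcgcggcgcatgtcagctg
Glb1: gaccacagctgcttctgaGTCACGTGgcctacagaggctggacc
Naglu: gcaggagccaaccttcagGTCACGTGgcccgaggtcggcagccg
Lgmn: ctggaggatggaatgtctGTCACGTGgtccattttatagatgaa
Arsa: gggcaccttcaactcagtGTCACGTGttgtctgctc
Sgsh: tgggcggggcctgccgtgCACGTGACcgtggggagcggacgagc

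The whole 250 bases are shown for the 2 called genes with the largest differences that had an entry, Gla and Cd68, and for Lamp1, which has the most copies. Gla (chrX:134601006-134601255, minus strand) holds 2 copies of CACGTG, of which 1 is part of GTCACGTG, and Lamp1 (chr8:13158911-13159160, plus strand) holds 4, of which 1 is part of CACGTGAC. Cd68 (chr11:69666171-69666420, minus strand) holds none. Capitals mark CACGTG or the longer form.
Gla: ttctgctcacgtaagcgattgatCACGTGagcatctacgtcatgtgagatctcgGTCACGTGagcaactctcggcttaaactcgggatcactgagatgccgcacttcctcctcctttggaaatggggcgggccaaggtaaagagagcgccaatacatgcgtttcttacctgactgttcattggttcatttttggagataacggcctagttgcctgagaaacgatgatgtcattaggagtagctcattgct
Lamp1: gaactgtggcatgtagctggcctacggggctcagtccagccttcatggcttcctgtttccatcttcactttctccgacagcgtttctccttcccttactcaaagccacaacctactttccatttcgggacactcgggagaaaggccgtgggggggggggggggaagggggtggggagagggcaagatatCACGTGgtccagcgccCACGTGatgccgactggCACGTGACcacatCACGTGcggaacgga
Cd68: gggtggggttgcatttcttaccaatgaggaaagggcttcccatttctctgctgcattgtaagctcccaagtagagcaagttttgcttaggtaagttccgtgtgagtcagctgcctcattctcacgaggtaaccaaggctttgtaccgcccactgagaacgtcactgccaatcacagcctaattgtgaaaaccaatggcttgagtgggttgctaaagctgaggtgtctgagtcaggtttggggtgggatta

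Microglia from G93A mice at end stage were then compared with microglia of the same age from mice carrying wildtype human SOD1. In this comparison 6 of the 43 genes were higher and none lower, beside 7% of all genes (2.81% as higher, 4.19% as lower), so 6 higher of 43 is a larger share than that of all genes called higher. They were 1 glycosidase (Gla), 1 membrane protein (Cd63), 2 V0 genes (Atp6v0a1 and Atp6v0d2) and 2 V1 genes (Atp6v1a and Atp6v1b2). The median difference was 0.62, against -0.13 over all genes, and 39 of 43 estimates were above 0. At an unadjusted p under 0.05, 20 members were higher and 1, Sgsh, was lower (-0.61, adjusted p = 0.140). The share of all genes at this unadjusted threshold is not given.

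Atp6v0d2 had 104, 76.0, 30.3 and 23.6 FPKM in G93A and 0.99, 1.82, 0 and 0.76 FPKM in WT microglia at this age. Every G93A library was far above every WT library, and the difference was 4.82 ± 0.60 (adjusted p = 4.32e-05). Gla had 78.6, 61.2, 56.3 and 29.8 FPKM in G93A and 13.6, 9.62, 6.08 and 16.6 FPKM in WT microglia. The groups were again apart, with a difference of 2.21 ± 0.46 (adjusted p = 0.00422). Cd63 had 1962, 1583, 1504 and 805 FPKM in G93A and 516, 513, 281 and 515 FPKM in WT microglia. It too did not overlap, at 1.65 ± 0.36 (adjusted p = 0.00584).

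The other called pump genes had smaller differences. Atp6v1a, the catalytic subunit of V1, was at 0.92 ± 0.17 (adjusted p = 0.00115) and was called under every alternative run. Atp6v0a1, a proton-channel subunit of V0, was at 0.88 ± 0.23 (0.0195) and Atp6v1b2 at 0.53 ± 0.14 (0.0235). Atp6v0a1 was no longer called without G93A library 1 (adjusted p = 0.0880) or 3 (0.0570) or WT library 3 (0.107), nor Atp6v1b2 without G93A library 1 (0.0893) or 2 (0.0537) or WT library 3 (0.103) or 4 (0.0638). Among members with large rises over the stages that were not called here, Cd68 had 539, 546, 191 and 596 FPKM in WT microglia, which overlapped the lowest G93A library, and a difference of 1.398 ± 0.68 (adjusted p = 0.204). Lamp1 had 572, 637, 430 and 693 FPKM in WT microglia, a difference of 0.69 ± 0.26 (0.103), and Npc2 108, 109, 73.2 and 128.5 FPKM, a difference of 0.94 ± 0.32 (0.0725). Both overlapped the lowest G93A library, library 4, and without it both were called (adjusted p = 0.0390 for Lamp1 and 0.0181 for Npc2), as they were with median-ratio scaling (0.0361 and 0.0305). The estimate of Lgmn lay below 0, at -0.21 ± 0.58 (0.862), with WT libraries of 1818, 1898, 925 and 2194 FPKM.

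The general microglia and macrophage markers did not stand higher in G93A here. Their summed level was 8.61 to 9.97 in WT and 8.08 to 9.33 in G93A microglia, the median of the 8 markers was -0.27, and 1 was called, P2ry12, at -2.35. Astrocyte markers had a median of -2.14 with 2 of 8 called lower, oligodendrocyte markers -0.87 with none called, and neutrophil markers -1.92 with none called. The part of these other cells in the result was not tested. S100a8 was above 10000 FPKM in G93A library 4 (20413) and in WT libraries 1 (32464) and 2 (16679). Without these libraries 11 members were called, without G93A library 4 alone 12, and with median-ratio scaling 12.

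**Figure D3:**
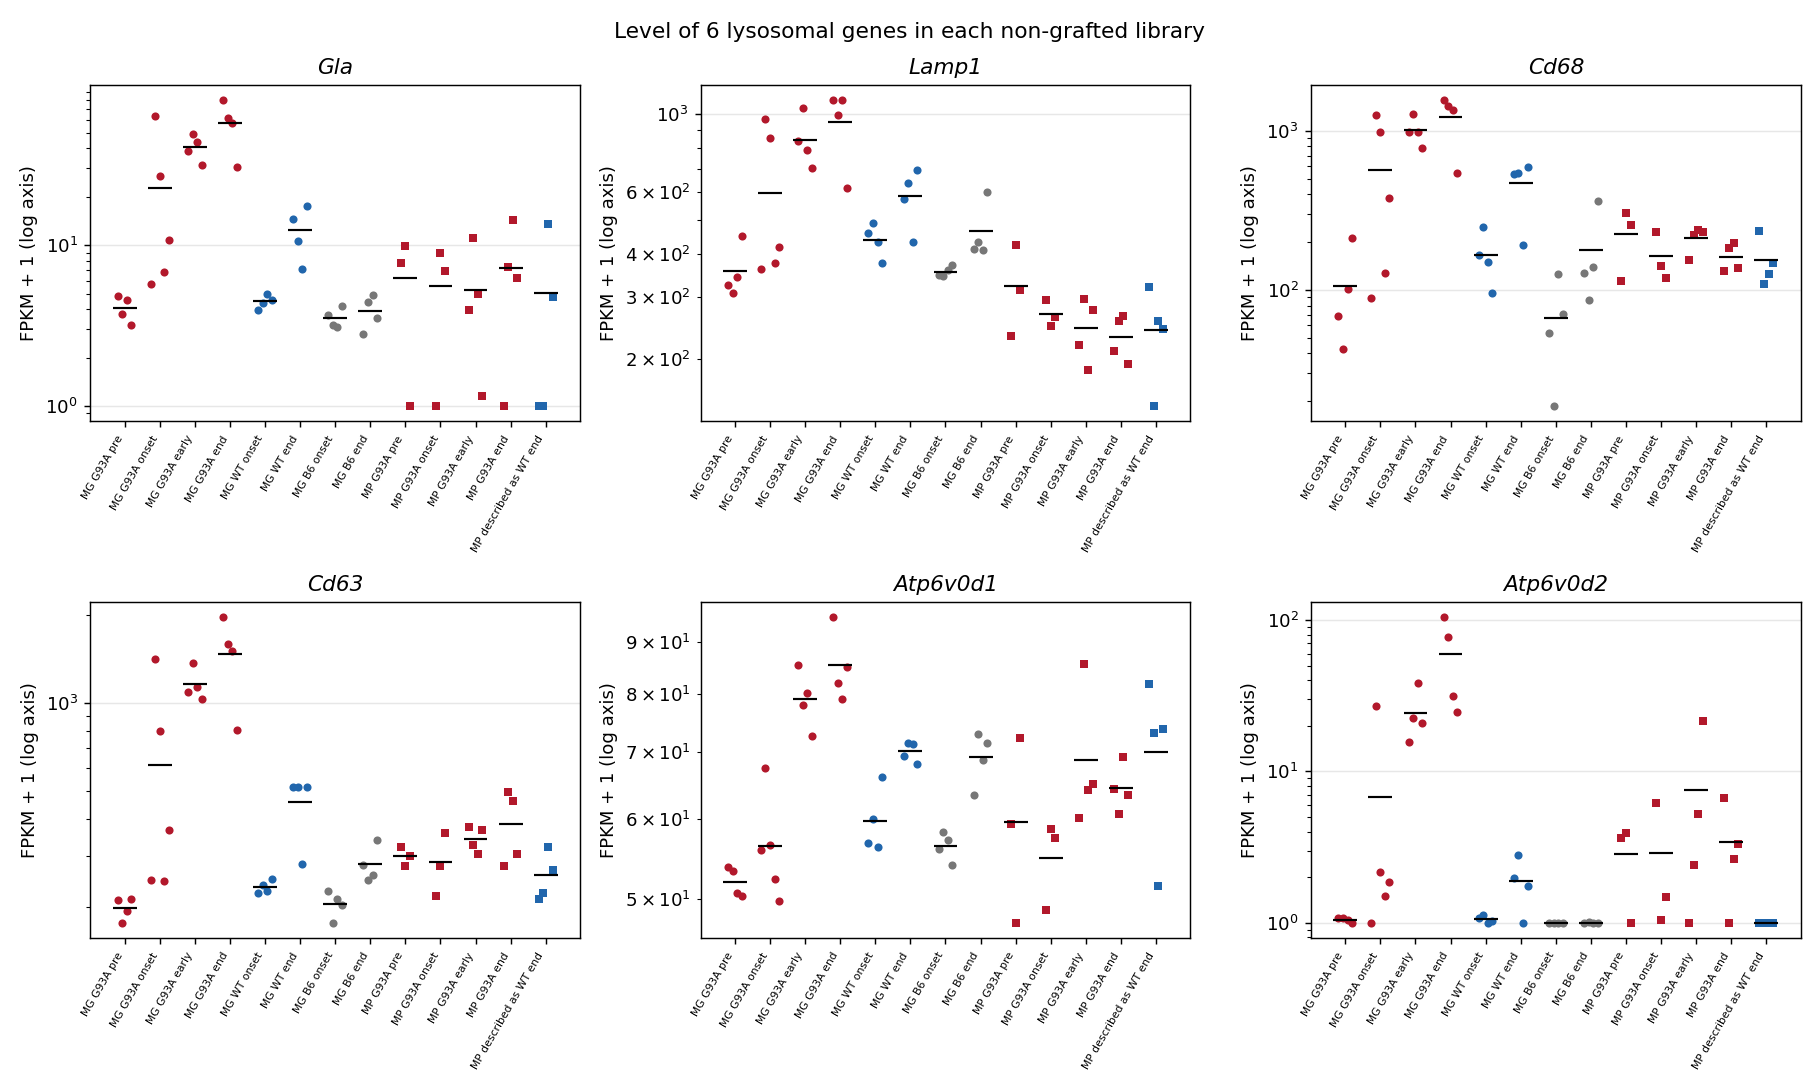
FPKM + 1 on a log axis for 6 lysosomal genes in each non-grafted library, by group, with circles for microglia (MG), squares for nerve macrophages (MP), red for G93A, blue for WT or described as WT, grey for B6 and a black bar for the mean. Atp6v0d2 is at 0 to 0.07 FPKM in pre-symptomatic microglia and at 23.6 to 104 FPKM at end stage, and Gla, Cd68 and Cd63 rise over the same groups, while Atp6v0d1 moves between 48.8 and 94.3 FPKM in G93A microglia.

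At onset age, 2 of the 43 genes were higher in G93A than in WT microglia, Gla and Atp6v0c, beside 4.31% of all genes (1.04% as higher, 3.27% as lower). The median difference was 0.49, against 0.04 over all genes, and 11 members were higher at an unadjusted p under 0.05. Gla had 2.96, 3.36, 3.99 and 3.56 FPKM in WT microglia, below all 5 G93A libraries, with a difference of 1.74 ± 0.44 (adjusted p = 0.0482). Atp6v0c, the proteolipid of the proton-carrying ring, was at 0.93 ± 0.25 (adjusted p = 0.0482) with overlap. No member was called when onset library 2, 3 or 5 or any 1 of the 4 WT libraries was left out, 20 were called without onset library 1, and 33 without onset libraries 1 and 4, again an alternative chosen after seeing the data.

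Against non-transgenic B6 microglia the lysosomal genes differed more widely. At end-stage age 32 of 43 were higher in G93A and none lower, beside 46.2% of all genes (18.3% as higher, 28% as lower), with a median of 1.12 against -0.00 over all genes. All 9 glycosidases were called, 6 of 7 membrane proteins, both cholesterol exporters, 5 of 6 V0 genes, 4 of 7 V1 genes and no sulfatase. Atp6v0d2, listed at 0 in 3 of 4 B6 libraries, had the largest difference, for which no fold can be given. Cd68 had 126.2, 86.2, 139 and 364 FPKM in B6 microglia, all under the lowest G93A library. Other cells differed as well: the summed astrocyte level was 7.47 to 8.37 in B6 and 3.53 to 6.39 in G93A microglia, the oligodendrocyte level 7.12 to 7.82 and 5.05 to 7.08, and the microglia and macrophage level, which overlapped, 7.73 to 9.61 and 8.08 to 9.33. With oligodendrocyte and neutrophil levels as terms, the calls of Hexa, Man2b1, Ppt1, Psap, Lamp2, Npc1, Atp6ap1 and Atp6ap2 were lost and Sgsh was called lower (-0.77, adjusted p = 0.00887). The calls of Man2b1, Ppt1, Psap and Atp6ap2 were lost without B6 library 2 (adjusted p = 0.0526 to 0.0650), those of Ppt1, Psap and Atp6v0d1 without G93A library 1 (0.0580 to 0.0699), and that of Ppt1 also without B6 library 1 (0.0518) or 3 (0.0552) or G93A library 3 (0.0632).

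At onset age 31 of 43 were higher in G93A than in B6 microglia and none lower, beside 55.1% of all genes (29.4% as higher), with a median of 0.91 against 0.15. Cd68 had the largest difference, with 52.6, 17.7, 124.5 and 69.9 FPKM in B6 microglia. The G93A libraries 1 and 4, at 88.7 and 127.7 FPKM, overlapped this range, and the difference was 2.69 ± 0.65 (adjusted p = 0.00839). The count fell to 19 without onset library 2 and to 16 without onset library 3, and with the fit limited to these 2 groups, or with oligodendrocyte and neutrophil terms, it was 0. Astrocyte markers were lower in G93A in 7 of 8 cases (median -2.61), oligodendrocyte markers in 6 of 8 (median -1.92), and microglia and macrophage markers were higher in 6 of 8 (median 1.78).

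WT and B6 microglia were not told apart by any single member. None of the 43 passed the limma test at either age, beside 0% of all genes, although 6 and 5 were higher at an unadjusted p under 0.05 and none lower. Estimates leaned upward, with 36 and 41 of 43 above 0 and medians of 0.39 and 0.49, against 0.09 and 0.07 over all genes. With library quality weights, 26 members at onset age and 36 at end-stage age were higher in WT and 1 was lower at each age, so these counts depend on the model of the spread. The share of all genes called under these weights is not given, so these counts cannot be read as a difference particular to the lysosomal genes. At end-stage age Gla was the one member with no overlap, at 1.82, 3.41, 3.88 and 2.50 FPKM in B6 and 6.08 to 16.6 FPKM in WT microglia, and its difference of 1.63 ± 0.46 had an adjusted p of 0.238. At onset age the largest estimate was that of Cd68, with 164, 248, 150 and 95.4 FPKM in WT microglia, which overlapped B6, at 1.52 ± 0.68 (adjusted p = 0.759). At that age 8 members had every WT library above every B6 library (Neu1, Sgsh, Ppt1, Tpp1, Lamp1, Lamp2, Npc2 and Atp6ap1), with estimates of 0.24 to 0.78 and adjusted p-values of 0.759 to 0.954. The share of all genes without overlap is not given, so this count has no level to be set against. At end-stage age the 8 neutrophil markers had a median of 3.86 and the 8 microglia and macrophage markers 1.06, all above 0 and none called. Their part in the estimates was not tested.

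In sciatic nerve macrophages the lysosomal genes showed no called change with stage. None of the 43 passed the limma test at onset, in early symptoms or at end stage against the pre-symptomatic stage, where 0%, 0% and 0.00975% of 10260 genes were called. At an unadjusted p under 0.05 none was higher and 2 lower at onset, 1 higher and none lower in early symptoms, and none higher and 1 lower at end stage. No other setting called a member in these 3 comparisons. The median differences were -0.10, 0.00 and -0.16, against -0.08, -0.09 and -0.12 over all genes.

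Single genes were at like levels at both ends. Lamp1 had 231, 423 and 314 FPKM before symptoms and 209, 255, 264 and 193 FPKM at end stage. Cd68 had 112.97, 303 and 256 FPKM, then 130, 182, 197 and 136.2 FPKM, and Npc2 had 43, 65.4 and 46.2 FPKM, then 36.5, 50.02, 63.3 and 35.9 FPKM. Their ranges overlapped, and differences of -0.45 for Lamp1, -0.37 for Cd68 and -0.16 for Npc2 were not called. The estimates of Lamp1, Cd68 and Npc2 were above 0 once Schwann cell and neutrophil levels were terms of the fit.

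Mcoln1 was the lowest estimate at end stage, at -1.39, and the one member there with an unadjusted p under 0.05. Its 20.9, 27.6 and 37.0 FPKM before symptoms lay above the 5.80, 10.3, 11.9 and 13.6 FPKM at end stage, with no overlap. In early symptoms it was at 24.3, 16.5, 6.53 and 21.9 FPKM, a difference of -0.79 ± 0.43 (adjusted p = 0.901). Sgsh had the largest difference at onset, with 5.57, 3.99 and 0 FPKM before symptoms and 10.5, 11.3 and 5.38 FPKM at onset, at 1.59 ± 0.84 (adjusted p = 0.980) and with overlap. Atp6v0d2 scattered within every nerve group, from 0 to 2.91 FPKM before symptoms, 0.04 to 5.19 at onset, 0 to 20.7 in early symptoms and 0 to 5.64 at end stage.

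Between end-stage G93A nerve macrophages and the libraries described as WT, none of the 43 passed the limma test, beside 0% of all genes, with 3 higher and 2 lower at an unadjusted p under 0.05 and a median of -0.10. Mcoln1 was the one member without overlap, with 23.2, 27.5, 22.7 and 31.99 FPKM in the libraries described as WT, all above the 5.80 to 13.6 FPKM of G93A (-1.31 ± 0.40, adjusted p = 0.513). Atp6v0d2 was listed at 0 in all 4 libraries described as WT and had 5.64, 0, 1.65 and 2.29 FPKM in G93A, which overlap at 0 (1.46 ± 0.83, adjusted p = 0.805). No other setting called a member. The genotype of these 4 libraries rests on the description alone. The summed Schwann cell level was 1.75 to 4.74 in the libraries described as WT and 1.01 to 1.66 in end-stage G93A libraries, with no overlap, and 1.35 to 6.70 in pre-symptomatic ones. From pre-symptomatic to end stage these 6 markers had a median of -2.80, with 5 at an unadjusted p under 0.05 and none called. Neutrophil levels were high throughout, at 10.9 to 12.6, and the part of these cell contents in the result was not tested.

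Nerve macrophages and microglia of the same G93A stages were compared in a joint fit of all 51 non-grafted libraries. The fit treats libraries as independent, and the labels do not say whether nerve and spinal cord came from the same mice. Before symptoms 9 of 43 genes were higher in the nerve and 3 lower, beside 54.7% of all genes (23.6% higher, 31% lower). Neither count is a larger share than that of all genes. The higher genes were Neu1 (2.09), Atp6v0e (1.74), Atp6v0b (1.31), Fuca1 (0.94), Atp6v1e1 and Atp6ap2 (0.88 each), Atp6v1b2 (0.73), Atp6v0c (0.72) and Atp6v1d (0.55). The lower ones were Gaa (-2.72), Lgmn (-2.52) and Arsb (-1.41). Gaa had 7.68, 18.7 and 0.27 FPKM in the nerve and 35.5 to 44.9 FPKM in microglia, with no overlap and an adjusted p of 0.000109. This split depends on scaling: with median-ratio scaling, which moved the median of all genes from -0.17 to -0.59, it was 3 higher and 11 lower.

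At end stage 34 members were lower in the nerve and 1, Atp6v1e1, higher (0.77), beside 39.4% of all genes (13.1% higher, 26.3% lower). The median was -1.61, against -0.37 over all genes. All 7 membrane proteins, both proteases, both cholesterol exporters and 8 of 9 glycosidases were lower. Fuca1 and Atp6v0c were the members called higher in the nerve before symptoms and lower at end stage. Lgmn had 23.0, 72.5, 137.4 and 64.1 FPKM in the nerve and 1584, 1672, 1632 and 907 FPKM in microglia. The groups were far apart, and the difference was -4.48 ± 0.63 (adjusted p = 9.87e-07). The microglia and macrophage markers were lower in the nerve too, 7 of 8 with a median of -3.76, and all 8 neutrophil markers were higher, with a median of 6.17, so tissue and cell content cannot be told apart.

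The difference in change between the cell types was tested as an interaction, in which the microglial change between the pre-symptomatic and the end stage is taken from that of the nerve. Of the 43 genes 31 had a lower change in the nerve and none a higher one, beside 19.8% of all genes (10.3% as lower). The median was -1.63, against -0.18 over all genes. The genes below the threshold were 7 of 9 glycosidases, 6 of 7 membrane proteins, both cholesterol exporters, all 6 V0 genes, 3 of 7 V1 genes and no sulfatase. The largest was that of Atp6v0d2, -5.39 ± 1.02 (adjusted p = 0.000898), followed by Cd68 at -4.05. Atp6v0d1 was the smallest of the 31, at -0.58, and lost its call with the replicate block, with median-ratio scaling (-0.14) and without any 1 of 12 of the 15 libraries (-0.43 to -0.60). With median-ratio scaling, under which the median of all genes moved to 0.20, 24 members were called, all lower. Without 1 library at a time the count was 23 to 31.

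**Figure D4:**
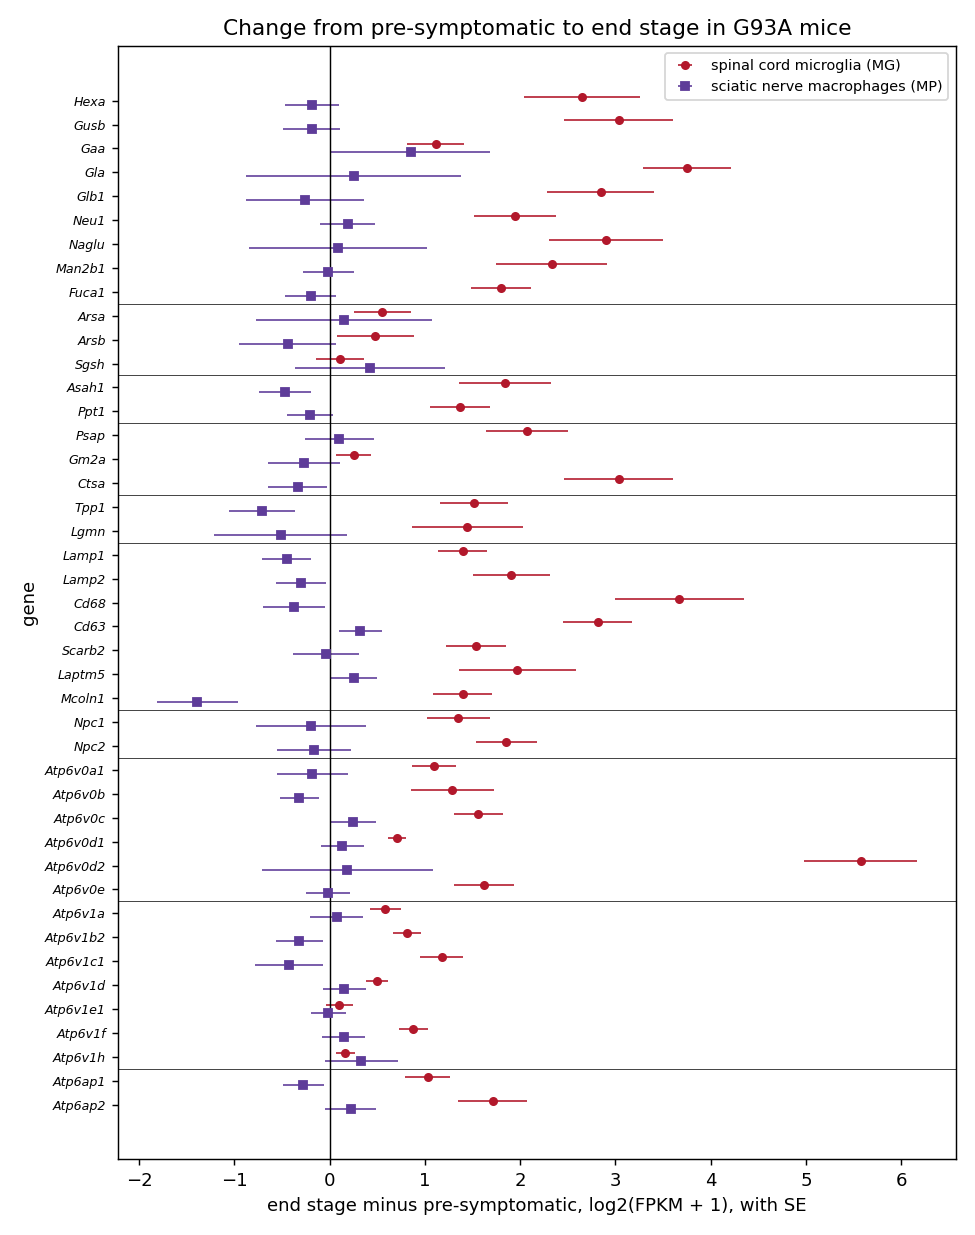
End stage minus the pre-symptomatic stage in G93A mice on the log2(FPKM + 1) scale (x axis) for each of the 43 genes (y axis, by role), with red circles for microglia, purple squares for nerve macrophages and bars for 1 SE. In microglia the genes spread from 0.10 to 5.58, and in the nerve from -1.39 to 0.85 around 0.

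In grafted G93A mice the question was whether marrow from WT donors goes with other levels than marrow from G93A donors. No member passed the limma test in microglia or in nerve macrophages, at either stage, and 0% of all genes did. Levels in grafted microglia were high with either donor. The mean log2 level over the 43 genes was 7.54 ± 0.09 (n = 3) with G93A marrow and 6.99 ± 0.72 (n = 3) with WT marrow in early symptoms, and 7.503 ± 0.06 (n = 3) and 7.49 ± 0.04 (n = 3) at end stage. Side by side, and not tested, non-grafted G93A microglia had 7.24 and 7.39 at these stages. Atp6v0d2 was at 15.1 to 87.5 FPKM in the 12 grafted microglial libraries.

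In early symptoms 42 of 43 estimates were lower with WT marrow, with a median of -0.56 against -0.06 over all genes. No gene was called, 3 were lower at an unadjusted p under 0.05 and none higher. Gla had the largest estimate, with 50.1, 62.2 and 40.0 FPKM for G93A marrow and 41.9, 31.4 and 9.53 FPKM for WT marrow. The ranges overlapped, and the difference was -1.06 ± 0.43 (adjusted p = 0.412). WT-marrow library 3 was the low one: its mean log2 level was 6.17, against 7.51 and 7.29 in the other 2 libraries. Its Mbp was at 21258 FPKM, its summed oligodendrocyte and astrocyte levels were 8.005 and 8.36, and its microglia and macrophage level was 7.14 against 9.24 and 8.91. Over the comparison, oligodendrocyte markers had a median of 1.70 and astrocyte markers of 2.65 in the other direction, with none called. Without WT-marrow library 1, which leaves 2 libraries in that group, 3 members were lower.

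At end stage estimates for grafted microglia were spread around 0, with 20 above and 23 below, a median of -0.04 against 0.00, and none at an unadjusted p under 0.05. Atp6v0d2 had 44.1, 17.4 and 38.1 FPKM with G93A marrow and 37.9, 87.5 and 34.03 FPKM with WT marrow, an overlap, at 0.63 ± 0.49 (adjusted p = 1.00). From early symptoms to end stage, microglia with G93A marrow had a median change of -0.01 with none at an unadjusted p under 0.05. Its largest estimate was that of Atp6v1b2, with 110, 127.2 and 93.3 FPKM, then 95.9, 75.5 and 72.9 FPKM, at -0.43 ± 0.25 (adjusted p = 1.00) and with overlap. With WT marrow the median was 0.61, with 5 higher at an unadjusted p under 0.05. Gla went from 41.9, 31.4 and 9.53 to 53.4, 42.3 and 47.6 FPKM, with no overlap, at 0.99 ± 0.43 (adjusted p = 0.546). The low early library is the one described above, and without WT-marrow library 1 of early symptoms 1 member was called.

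In grafted nerve macrophages 30 of 43 estimates were lower with WT marrow in early symptoms, with a median of -0.19 against -0.10 and none at an unadjusted p under 0.05. Atp6v0d2 had 8.42, 12.1 and 2.61 FPKM with G93A marrow and 0 and 7.93 FPKM with WT marrow, an overlap, at -1.35 ± 1.34 (adjusted p = 1.00). At end stage 2 genes were higher and 5 lower at an unadjusted p under 0.05, with a median of 0.11 against -0.15. Arsb had 23.3, 48.02 and 19.6 FPKM with G93A marrow and 0.28, 5.31 and 6.30 FPKM with WT marrow. The libraries did not overlap, and the difference of -2.90 ± 0.66 had an adjusted p of 0.151. Without WT-marrow library 2, 2 members were called at end stage.

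Over time in the grafted nerve, 2 members were higher and 1 lower at an unadjusted p under 0.05 with G93A marrow (median -0.34), and none higher and 2 lower with WT marrow (median 0.02). With G93A marrow Atp6v0d2 went from 8.42, 12.1 and 2.61 to 0.63, 4.98 and 0 FPKM, with overlap, at -1.84 ± 1.19 (adjusted p = 0.950). With WT marrow Arsa went from 10.4 and 10.3 to 0, 9.02 and 0.03 FPKM, all lower, at -2.38 ± 0.98 (adjusted p = 0.596). No other setting called a member in either of these comparisons, in grafted nerve in early symptoms, in grafted microglia at end stage or in microglia with G93A marrow over time. These groups hold 2 or 3 libraries, which limits what the test can show.

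Other lysosomal genes, taken from lists that hold none of the 43, were examined in the same microglia, end stage against the pre-symptomatic stage. Of 18 further hydrolases and cofactors 13 rose and 2 fell (median 1.56), beside 24.8% of all genes higher and 31.1% lower. Galns, a sulfatase of keratan sulfate breakdown, rose by 3.42 and Lipa, which splits cholesteryl esters, by 3.14, while Smpd1 (acid sphingomyelinase) fell by 0.54 and Ids, a sulfatase of heparan and dermatan sulfate, fell by 0.77. Of 13 further membrane genes 8 rose and 2 fell (median 1.15), with Slc11a1, a metal transporter of phagosomes, the highest at 2.71, and with Laptm4b at -1.01 and Lamp5 at -1.08.

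Genes that sort hydrolases to the lysosome rose in 4 of 5 tested (median 1.08), with M6pr, a mannose 6-phosphate receptor, at 1.60. Of 10 further pump genes 5 were tested. Tcirg1, the V0 subunit a3 of phagocytes and osteoclasts, rose by 2.20 and 1 other rose, whereas 3 fell (median -0.91), among them Atp6v1g2 at -2.38 and Atp6v0e2 at -2.35, forms known from neurons. Against WT microglia at end-stage age the 4 lists had 2, 2, 1 and 0 genes higher and 0, 0, 0 and 1 lower, of 18, 13, 5 and 5 tested, beside 2.81% of all genes higher and 4.19% lower. In the nerve, from pre-symptomatic to end stage, no gene of these lists was called by limma, with 3 lower and none higher at an unadjusted p under 0.05.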

How the data were processed

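The authors deposited FPKM for 58976 features in 2 tables, 1 of 51 non-grafted and 1 of 23 grafted libraries, per the file headers. The mouse build mm10 and the tools DESeq2, Picard, FastQC, SAMtools and R 3.2.5 are named, without roles, per the submitters' processing notes; for aligner and strand setting, not given in the sources used here. As FPKM keep no read depth, depth is unknown and no counting interval is given. Groups came from the labels. Tests used limma 3.58.1 (R 4.3.3), with 1 mean per group and eBayes with a trend, on log2(FPKM + 1), for features with a symbol and a mean of at least 1 FPKM in the fit, with Benjamini-Hochberg adjustment over all of them and a threshold of 0.05. All 43 genes passed the filter in each of the 5 fits: 33 microglial, 18 nerve, 12 grafted microglial, 11 grafted nerve and the 51 non-grafted libraries together. In the microglial fit Atp6v0d2 passed only through G93A libraries of onset and later stages. No test crosses the 2 tables, since it is not stated whether they were normalized together. Shares of all genes are given at the adjusted threshold of the main fits. For counts without overlap, at an unadjusted p under 0.05 or under alternative settings, such shares are not given. Those counts of members therefore have no level to be set against. Scripts were tested on simulated data. Errors are SD for levels and SE for differences, and a difference on this scale understates the change of low genes. Values in every library are printed for the 3 called members with the largest rises at microglial end stage, against the pre-symptomatic stage and against WT, for the largest difference in each other comparison, and for Lamp1, Cd68, Npc2 and the d subunits. A few more were named after their values were seen. The 43 genes, the lists and the markers were chosen with earlier results of these data known.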

Additional observations from a re-analysis of the deposited data

Results flagged for a closer look

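The difference between the nerve and the microglial change from pre-symptomatic to end stage passed the limma interaction test for 31 genes, all lower in the nerve. Among the hydrolases and helper proteins it was -2.84 for Hexa, -3.23 for Gusb, -3.50 for Gla, -3.10 for Glb1, -1.76 for Neu1, -2.34 for Man2b1 and -2.003 for Fuca1. It was -2.31 for Asah1, -1.58 for Ppt1, -1.97 for Psap, -3.37 for Ctsa and -2.23 for Tpp1. For membrane proteins and cholesterol export it was -1.85 for Lamp1, -2.21 for Lamp2, -4.05 for Cd68, -2.49 for Cd63, -1.57 for Scarb2, -2.79 for Mcoln1, -1.55 for Npc1 and -2.02 for Npc2. In the V0 sector it was -1.28 for Atp6v0a1, -1.61 for Atp6v0b, -1.31 for Atp6v0c, -0.58 for Atp6v0d1, -5.39 for Atp6v0d2 and -1.63 for Atp6v0e. For the other pump genes it was -1.13 for Atp6v1b2, -1.60 for Atp6v1c1, -0.73 for Atp6v1f, -1.31 for Atp6ap1 and -1.49 for Atp6ap2.

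Dixon's criterion was applied to 163 sets of values, each of 1 gene or of the mean level in 1 group of 4 or 5 libraries. In 16 of them 1 library lay far from the others. Chance meets this in about 5% of independent sets, but these sets share libraries and are not independent. The mean log2 level over the 43 genes was low in 1 G93A microglial library at end stage (6.82) and in 1 WT library at end-stage age (6.09). The same WT library was low for Cd68 (191 FPKM) and Cd63 (281 FPKM), and the same G93A library for Lgmn (907 FPKM). One G93A library was low for Sgsh at end stage (1.45 FPKM), and 1 B6 library at onset age (1.21 FPKM). Atp6v0d2 was high in 1 onset library (26.1 FPKM), and 1 B6 library at end-stage age had 0.01 FPKM where the others had 0. In B6 microglia at end-stage age 1 library was high for Lamp1 (599 FPKM) and Npc2 (106 FPKM), and in WT microglia at onset age 1 was high for Npc2 (74.0 FPKM). In the nerve, Atp6v1b2 was high in 1 early symptomatic library (185 FPKM) and low in 1 library described as WT (139 FPKM), Lgmn was high in 1 library described as WT (168 FPKM), and Arsa was high in 1 end-stage library (10.1 FPKM).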

How the results depend on the processing

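The counts of called members at early symptoms and end stage against the pre-symptomatic stage stayed within 1.5 times under every alternative run; 300 of 346 alternatives over 25 comparisons did so. Onset against the pre-symptomatic stage fell from 21 to 0 with no filter on low values, with the replicate block, with oligodendrocyte and neutrophil terms, without libraries with S100a8 above 10000 FPKM and with only the groups compared; quality weights gave 39, and leaving out the Mbp-high onset libraries, chosen after seeing the data, 37. Onset against WT fell from 2 to 0 under the same settings and with median-ratio scaling, and was 4 with a pseudocount of 0.1, 38 with quality weights and 33 without the Mbp-high libraries. Onset against B6 was 0 with the oligodendrocyte and neutrophil terms and with only the groups compared. End stage against WT was 12 with median-ratio scaling, 33 with quality weights and 11 without S100a8-high libraries. Quality weights, which ran from 0.0643 to 11.5, also gave 8 for end stage against early symptoms, and 27 and 37 for WT against B6 at onset and end-stage age. The cause of these moves was not tested. Shares of all genes under these settings are not given, so the counts have no level to be set against.

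Leaving out 1 library at a time gave 0 to 34 members for onset against pre-symptomatic, 0 to 20 for onset against WT, 16 to 35 for onset against B6, 4 to 12 for end stage against WT, 0 to 3 for grafted microglia in early symptoms, 0 to 1 for microglia with WT marrow over time, 0 to 2 for grafted nerve at end stage, 10 to 16 for nerve against microglia before symptoms and 23 to 31 for the interaction. Among 64 single-gene results, 866 of 958 alternatives kept direction and call and 9 changed sign, all uncalled: in the nerve from pre-symptomatic to end stage, Atp6v0d2 was -0.11 with the replicate block and ran from -0.45 to 0.67 without 1 library, Npc2 from -0.32 to 0.020 and Atp6v0d1 from -0.024 to 0.28; with Schwann cell and neutrophil terms Lamp1 was 0.074, Cd68 0.39 and Npc2 0.36. In grafted nerve in early symptoms Atp6v0d2 ran from -2.93 to 0.23, where leaving out a WT-marrow library leaves 1, assumed to vary like the others. Correlations of deviations over microglial pairs of the same number ran from -0.821 to 0.809 (median -0.03). Over pairs of different numbers they ran from -0.884 to 0.884 (median 0.02). Libraries of the same number thus did not deviate together more than others, and the main tests do not pair them. Nerve and spinal cord libraries were not correlated with each other.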
